A study of Mus musculus with 10 samples.

Results

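The genes described here are Bdnf, Nr3c1, Reln, Gad2 and Gad1, a set of 5 genes of neuronal plasticity whose DNA methylation was followed across 3 diets in mouse brain. Their members are the non-control probes of a CpG island array whose position on the mouse build mm9 falls in a window around each gene. The windows held 56 of the 88737 non-control probes, of which 19 lay at Bdnf, 16 at Nr3c1, 7 at Reln and 14 at Gad2. No probe used here fell in the Gad1 window, so Gad1 was not analysed here. Member probes whose starts lay at most 500 bp apart formed 8 clusters, of 15538 on the whole array, and 6 of these 8 clusters held the 3 or more probes needed for a test. The set was named for promoters sensitive to diet, and no member cluster or probe passed an adjusted p of 0.05 in any comparison of diets below.

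The samples were left hemibrains of male C57BL/6j mice, fed 1 of the diets for 24 weeks from an age of 3 weeks. The enriched diet ERD had an n-3:n-6 ratio of polyunsaturated fatty acids of 7:1 (4 arrays), the balanced diet BLD had 1:1 (3 arrays), and the standard lab diet STD, against which the other diets are set, had 1:6 (3 arrays). Every sample title, whatever its diet, carries the word CONTROL. The diets were made equal in calories, and the labels give no other treatment or allele for any group. Methylated DNA was immunoprecipitated, labelled with Cy5 and hybridised together with Cy3-labelled input DNA, a method known as MeDIP-chip. The value throughout is the log2 ratio of Cy5 over Cy3 relative to the median of the array, so 0 is the median probe. A positive value means a higher ratio of immunoprecipitated to input signal than at the median probe. A hemibrain mixes many cell types, so a shift in the share of a cell type and a shift in methylation within cells cannot be told apart. The files pair no probe with a gene, so the tissue was not checked against marker genes, and the genes are named here by their windows.

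The arrays sat on 5 slides, and only slide 4 held arrays of different diets (BLD replicate 3 and STD replicate 1). Slides 1 and 2 held only ERD, slide 3 only BLD and slide 5 only STD, so outside slide 4 the slide and the diet cannot be told apart. Between 69.6% and 91.1% of the member spots were well above background in both channels on an ERD array, 83.9% to 89.3% on a BLD array and 76.8% to 89.3% on an STD array. No member spot was saturated, and 1 Nr3c1 spot on ERD replicate 1 was dropped as an outlier. The interquartile range of the log2 ratios over all probes, which is the spread within an array, was 0.793, 0.736, 0.692 and 0.612 on the ERD arrays. It was 0.744, 0.706 and 0.383 on the BLD arrays and 0.511, 0.530 and 0.380 on the STD arrays. Every ERD array thus had a wider spread than every STD array, and BLD replicate 3 lay with STD. Its part in the differences below was not tested, beyond the alternative that scaled all arrays to one spread.

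Bdnf encodes a secreted neurotrophin that supports synapse growth and learning, and it is transcribed from several alternative promoters, each with its own first exon. Nr3c1 encodes the glucocorticoid receptor, the nuclear receptor for corticosterone that takes part in feedback on the stress response. Reln encodes reelin, a large extracellular glycoprotein that guides neuronal layering during development and modulates synapses in adult brain. Gad1 and Gad2 encode glutamate decarboxylases, the enzymes that make the inhibitory transmitter GABA from glutamate. Methylation of cytosines in CpG dinucleotides at promoters is often associated with lower transcription, and the antibody pull-down collects more DNA where methylated CpG are dense.

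Because the pull-down reads methylated CpG, the number of CpG that a promoter offers is shown first, with each CpG in capitals. The sequences are RefSeq promoters on build GRCm38.p6, from 250 bases before to 50 bases after a gene's start, written 5′ to 3′ on the gene's strand. The promoters described are those of Bdnf, Gad2 and Reln, matched by symbol. Nr3c1 promoters were left out of this description, so their absence does not mean that the symbol had no match. Probe positions are on mm9, so the probes cannot be placed on these windows here. The Reln promoter (chr5:22344656-22344955, minus strand) has 47 CpG, and 1.44% of all 32851 promoters of the table have as many or more. The Gad2 promoter (chr2:22622077-22622376, plus strand) has 14, and the median promoter has 7. Bdnf has 7 listed promoters with 11, 7, 12, 10, 13, 2 and 8 CpG in order along the plus strand. Those with the most CpG (chr2:109694159-109694458) and the fewest (chr2:109709133-109709432) are printed.
Reln: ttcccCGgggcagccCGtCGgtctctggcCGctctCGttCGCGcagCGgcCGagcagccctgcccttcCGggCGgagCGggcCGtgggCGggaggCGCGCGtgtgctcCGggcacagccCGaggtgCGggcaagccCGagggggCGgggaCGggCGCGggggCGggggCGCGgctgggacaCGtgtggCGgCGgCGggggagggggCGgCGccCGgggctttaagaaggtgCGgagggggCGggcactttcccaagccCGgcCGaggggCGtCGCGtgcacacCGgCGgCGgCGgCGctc
Gad2: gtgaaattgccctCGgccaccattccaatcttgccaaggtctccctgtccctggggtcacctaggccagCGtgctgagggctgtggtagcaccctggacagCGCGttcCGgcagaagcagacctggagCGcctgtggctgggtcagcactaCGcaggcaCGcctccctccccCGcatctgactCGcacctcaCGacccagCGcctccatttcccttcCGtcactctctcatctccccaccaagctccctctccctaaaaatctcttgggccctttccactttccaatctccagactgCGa
Bdnf, promoter with most CpG: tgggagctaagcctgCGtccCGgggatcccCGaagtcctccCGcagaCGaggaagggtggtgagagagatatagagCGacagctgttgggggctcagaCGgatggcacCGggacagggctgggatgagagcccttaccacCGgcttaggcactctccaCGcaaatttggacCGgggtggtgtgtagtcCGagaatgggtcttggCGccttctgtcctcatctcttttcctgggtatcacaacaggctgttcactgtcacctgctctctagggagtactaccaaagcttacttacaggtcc
Bdnf, promoter with fewest CpG: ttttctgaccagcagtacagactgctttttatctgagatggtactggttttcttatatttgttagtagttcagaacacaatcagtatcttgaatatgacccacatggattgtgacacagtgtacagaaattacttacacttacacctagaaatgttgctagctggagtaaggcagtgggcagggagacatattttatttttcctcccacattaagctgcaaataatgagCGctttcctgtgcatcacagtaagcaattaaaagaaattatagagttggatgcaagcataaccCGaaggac

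The 4 Bdnf clusters lay between 109514074 and 109563839 on chromosome 2 (mm9). They held the 3 highest cluster means of the whole set, and among the tested clusters the one that differed most between diets, cluster 2 (109517205 to 109517832, 5 probes), was higher under BLD than under STD in every array. Its log2 ratio was 0.599, 0.724, 0.124 and -0.196 in the ERD arrays, 0.586, 0.570 and 0.234 in the BLD arrays, and -0.287, -0.046 and 0.046 in the STD arrays. The means were 0.31 ± 0.43 in ERD (SD, n = 4), 0.46 ± 0.20 in BLD (n = 3) and -0.10 ± 0.17 in STD (n = 3). The BLD and STD arrays did not overlap, while the ERD arrays split by slide, with high values on slide 1 and lower ones on slide 2. BLD minus STD was 0.56 ± 0.21 (SE), with an unadjusted p of 0.0217 and an adjusted p of 0.440 in the limma fit, and 0.52 between the BLD and STD array of slide 4. ERD minus STD was 0.41 ± 0.20, with an adjusted p of 0.340.

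Much of the size of this difference came from 1 probe. The first probe of cluster 2 (109517205 to 109517264, 60 nucleotides long) had recorded ratios that averaged 1.00 over the 10 arrays. It read 2.62, 2.29, 0.611 and -0.343 in ERD, 1.68, 2.01 and 0.883 in BLD, and -0.409, 0.631 and 0.037 in STD. Its input signal was not well above background on any of the 10 arrays, and its Cy5 signal was so on 3, so these ratios set no level, rank or fold for it. Among the other Bdnf probes the highest mean was 0.846, at 109563795 to 109563839. Without that probe the cluster averaged 0.067 ± 0.205 in ERD, 0.20 ± 0.12 in BLD and -0.14 ± 0.17 in STD. In a fit that left out every probe not well above background in both channels on any array (2.4% of all probes, 2 of them members), BLD minus STD was 0.340 with an adjusted p of 0.451, and ERD minus STD was 0.208. With only its 3 probes well above background on all arrays, BLD minus STD was 0.231 and ERD minus STD 0.123. With the median of all 5 probes they were 0.212 and 0.257. With normexp background correction both differences turned, to -0.068 for BLD minus STD and -0.083 for ERD minus STD. The normexp fit started from the raw median signals, so it also left out the dye normalization of the processed signals. The unadjusted p of BLD minus STD also passed 0.05 upwards when BLD replicate 1, BLD replicate 2 or STD replicate 1 was left out.

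The other Bdnf clusters showed no such order. Cluster 1 (109514074 to 109514478, 4 probes) read 0.135, -0.173, 0.241 and 0.192 in ERD, 0.228, 0.244 and 0.083 in BLD, and 0.137, 0.074 and 0.128 in STD, with 9 of 10 arrays above the median. Cluster 3 (109533518 to 109534391, 8 probes) read -0.233, 0.124, -0.319 and -0.020 in ERD, 0.117, 0.032 and -0.014 in BLD, and -0.129, 0.207 and -0.007 in STD. The diets overlapped in both clusters. Cluster 4 (109563551 to 109563839) has only 2 probes and stayed out of the cluster test. It read 0.269, 2.06, 0.248 and 0.429 in ERD, 0.982, 1.01 and 0.037 in BLD, and -0.098, 0.547 and 0.516 in STD, so that ERD replicate 2 lay far above the others. Only 50% of its spots in ERD, 66.7% in BLD and 16.7% in STD were well above background. Over all 19 Bdnf probes the mean was 0.14 ± 0.20 in ERD, 0.25 ± 0.15 in BLD and 0.042 ± 0.136 in STD. With normexp these means were 0.026, -0.003 and 0.081, a different order of the diets. With only probes well above background on all arrays they were 0.065, 0.050 and 0.004.

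**Figure D1:**
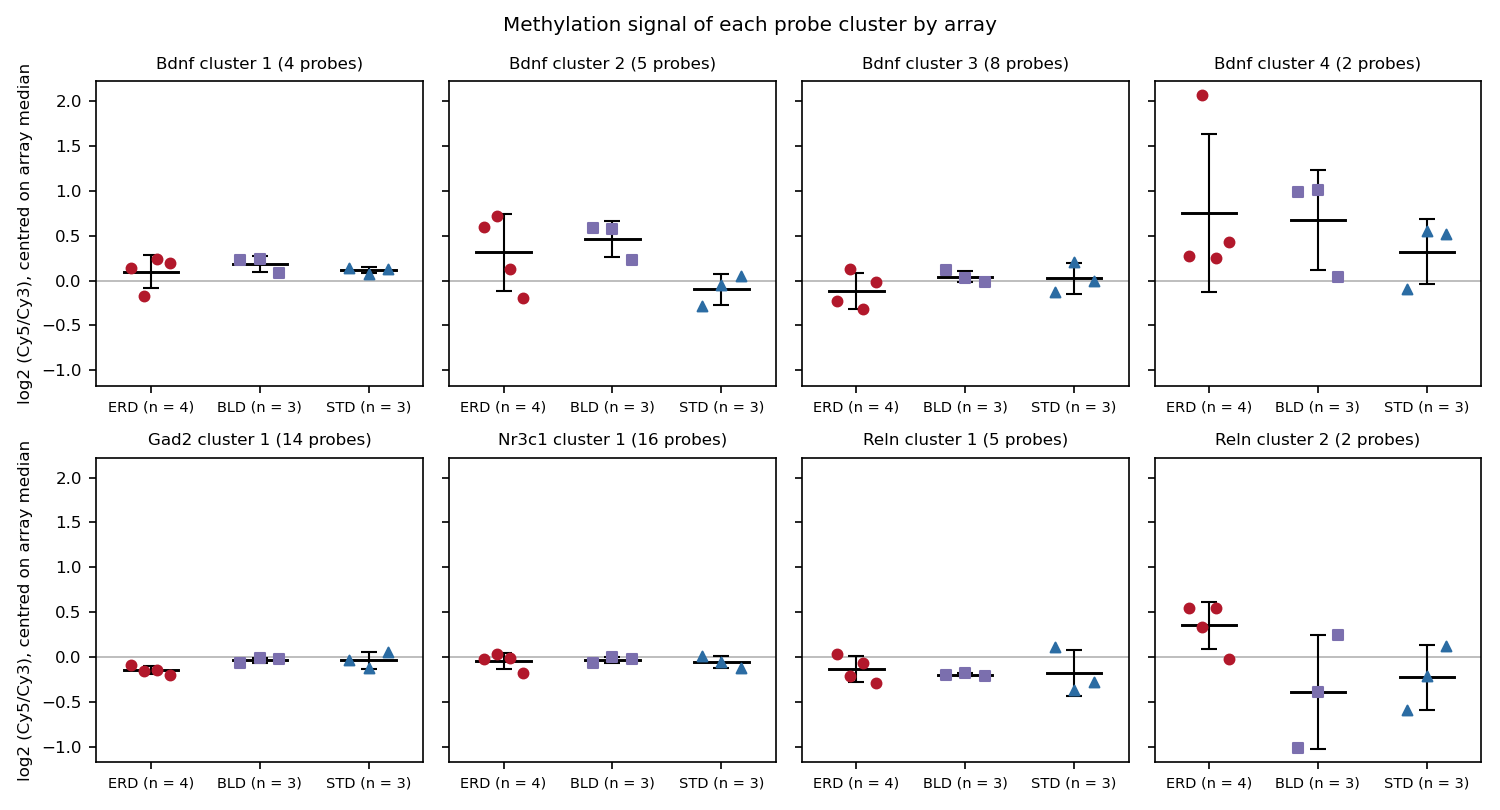
Log2 Cy5/Cy3 ratio of each of the 8 clusters, centred on the array median, 1 point an array, with the mean and SD of each diet as bars. In Bdnf cluster 2 the 3 BLD arrays (0.234 to 0.586) lie above the 3 STD arrays (-0.287 to 0.046), and the Gad2 and Nr3c1 points lie close together.

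Within Bdnf cluster 3, the probe with the lowest p for ERD minus STD lay at 109533710 to 109533758. It read -1.15, -0.929, -1.44 and -0.500 in ERD, -0.321, -0.643 and 0.342 in BLD, and -0.267, 0.568 and -0.091 in STD. All 4 ERD arrays were below all 3 STD arrays, while the ERD and BLD arrays overlapped. ERD minus STD was -1.08 ± 0.30 (adjusted p = 0.166) and ERD minus BLD was -0.80 ± 0.30 (adjusted p = 0.386), the lowest p among members in that comparison too. The spot was well above background on 2 of 4 ERD, 3 of 3 BLD and 2 of 3 STD arrays. With normexp the differences were -0.347 and -0.089, and without BLD replicate 3 ERD minus BLD was -0.524. The lowest mean of the Bdnf probes was that of 109534011 to 109534055, -0.459, in the same cluster.

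Nr3c1 was covered by 1 cluster of 16 probes on chromosome 18 (39648559 to 39651541, mm9), and as a whole it did not differ detectably between diets. Its log2 ratio was -0.024, 0.037, -0.011 and -0.178 in ERD, -0.066, -0.003 and -0.023 in BLD, and 0.012, -0.058 and -0.123 in STD. The means were -0.044 ± 0.093 in ERD (SD, n = 4), -0.031 ± 0.032 in BLD (n = 3) and -0.056 ± 0.067 in STD (n = 3), and all 3 diets overlapped. The difference ERD minus STD was 0.013, with a 95% interval of -0.178 to 0.204 and an adjusted p of 0.955, and BLD minus STD was 0.026, with an interval of -0.178 to 0.230 and an adjusted p of 0.929. With only the 9 Nr3c1 probes well above background on all arrays, ERD averaged -0.212 ± 0.156, BLD -0.163 ± 0.17 and STD 0.005 ± 0.082. These means of the bright probes lay further apart and were not tested.

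The near-zero mean of the Nr3c1 cluster joined probes with differences of opposite sign, none of which passed the adjusted threshold. Joining probes over at most 300 bp split it into parts, of which 3 held at least 3 probes, and the parts described here were picked out after their values were seen. In the first (39648559 to 39648973, 3 probes) the log2 ratio was 0.319, 0.684, 0.169 and 0.197 in ERD, 0.517, 0.473 and 0.188 in BLD, and -0.195, -0.115 and -0.602 in STD. The ERD and BLD arrays all lay above the STD arrays. In this part 11 of 12 spots in ERD, 9 of 9 in BLD and 7 of 9 in STD were well above background. Only its probe at 39648929 was so on all arrays. The fit gave an ERD minus STD difference of 0.65 ± 0.16 (unadjusted p = 0.0013, adjusted p = 0.177), and BLD minus STD was 0.70 ± 0.17 (unadjusted p = 0.00122, adjusted p = 0.427). Between the arrays of slide 4 the BLD value was 0.383 higher.

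In the second part of the Nr3c1 cluster (39649808 to 39650229, 3 probes) the order of the means was the opposite, though its probes were not alike. The probe at 39649808 differed by 0.27 for ERD minus STD and by -0.022 for BLD minus STD. It was well above background on 3 of 4 ERD, 1 of 3 BLD and 1 of 3 STD arrays. The other probes gave -0.58 and -0.83 for ERD minus STD, and -0.64 and -0.22 for BLD minus STD. The log2 ratio of the whole part was -0.441, -0.354, -0.357 and -0.473 in ERD, -0.365, -0.400 and -0.197 in BLD, and 0.010, -0.112 and 0.020 in STD. Again neither ERD nor BLD overlapped STD. Here the ERD minus STD difference was -0.38 ± 0.093 (unadjusted p = 0.00147, adjusted p = 0.177), BLD minus STD was -0.29 ± 0.099 (unadjusted p = 0.0117, adjusted p = 0.427), and the slide 4 difference was -0.207. The third part (39650519 to 39651541, 8 probes) averaged 0.024 ± 0.140 in ERD, -0.095 ± 0.103 in BLD and 0.021 ± 0.057 in STD, with overlapping arrays. At this joining distance 15.9% of all 14307 clusters had an unadjusted p under 0.05 for ERD minus STD and 11.0% for BLD minus STD, and none of the differences above passed the adjusted threshold. Both comparisons share the STD arrays. With normexp, on raw signals without dye normalization, the first part gave -0.026 for ERD minus STD and -0.082 for BLD minus STD, against the direction above. The second part gave -0.099 for ERD minus STD and 0.009 for BLD minus STD.

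**Figure D2:**
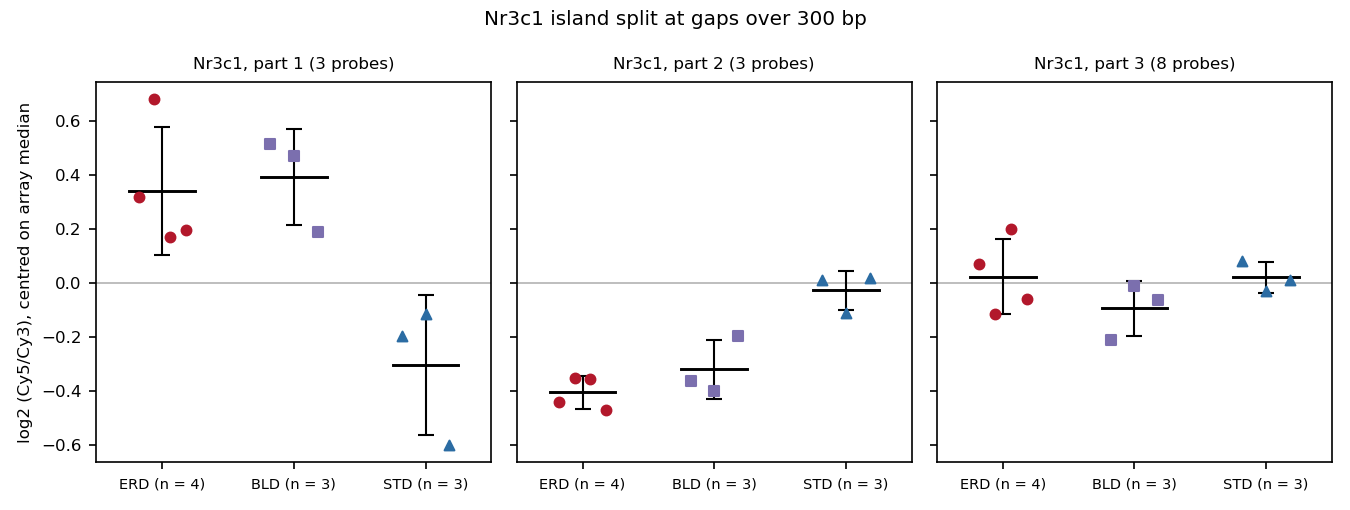
Log2 Cy5/Cy3 ratio of the 3 parts of the Nr3c1 cluster that hold at least 3 probes, split at gaps over 300 bp, 1 point an array with mean and SD. ERD and BLD lie above STD in part 1 (means 0.342, 0.392 and -0.304) and below it in part 2 (means -0.406, -0.321 and -0.027).

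The Nr3c1 probe at 39648559 to 39648603, inside the first part, had the lowest p of all members for BLD minus STD. It read 0.375, 0.795, 0.162 and 0.323 in ERD, 0.808, 0.758 and 0.336 in BLD, and -0.106, -0.265 and -0.719 in STD. BLD minus STD was 1.00 ± 0.24 (unadjusted p = 0.00126, adjusted p = 0.464), and the spot was well above background on 1 of the 3 STD arrays and on all ERD and BLD arrays. With normexp the same difference was -0.303. The highest mean of the Nr3c1 probes was 0.444 at 39648806 to 39648861, and the lowest was -0.396 at 39651497 to 39651541.

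Reln lay on chromosome 5, where 7 probes covered 21849904 to 21851257. Its tested cluster 1 (21849904 to 21850556, 5 probes) was below the array median on 8 of 10 arrays and was similar across diets. The values were 0.034, -0.211, -0.068 and -0.292 in ERD, -0.200, -0.174 and -0.210 in BLD, and 0.109, -0.368 and -0.274 in STD. The means were -0.13 ± 0.15 in ERD (SD, n = 4), -0.194 ± 0.019 in BLD (n = 3) and -0.18 ± 0.25 in STD (n = 3). The STD arrays alone covered the whole range, and the mean stood at the 26.6th percentile of all tested clusters. ERD minus STD was 0.043, with a 95% interval of -0.226 to 0.312, and BLD minus STD was -0.017, with an interval of -0.304 to 0.271.

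Reln cluster 2 (21851025 to 21851257) has 2 probes and was not tested as a cluster. It read 0.546, 0.333, 0.547 and -0.020 in ERD, -1.02, -0.390 and 0.251 in BLD, and -0.594, -0.208 and 0.127 in STD, so 3 of 4 ERD arrays were above all the others. In each diet 50% of its spots were well above background. Its 59-nucleotide probe at 21851199 to 21851257 read 1.32, 0.439, 1.05 and 0.037 in ERD, -0.555, 0.062 and 0.346 in BLD, and -0.929, -0.537 and -0.019 in STD. This probe had the lowest p of all members for the trend over the n-3:n-6 ratio (unadjusted p = 0.00264, adjusted p = 0.144). Its Cy5 signal was not well above background on any array and its Cy3 signal was so on 3, so no fold is given for it. The lowest mean of the Reln probes was -0.661 at 21850369 to 21850413, and over all 7 probes Reln averaged 0.0046 ± 0.18 in ERD, -0.25 ± 0.18 in BLD and -0.19 ± 0.12 in STD. Without the 59-nucleotide probe the means were -0.113 in ERD, -0.282 in BLD and -0.141 in STD, so ERD and STD lay closer together. With only probes well above background on all arrays they were 0.062, -0.342 and 0.025.

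Gad2 was covered by 1 cluster of 14 probes on chromosome 2 (22477616 to 22479461), which lay a little below the array median. It read -0.092, -0.157, -0.143 and -0.200 in ERD, -0.066, -0.013 and -0.022 in BLD, and -0.037, -0.127 and 0.058 in STD. The means were -0.148 ± 0.045 in ERD (SD, n = 4), -0.034 ± 0.029 in BLD (n = 3) and -0.035 ± 0.093 in STD (n = 3). Every ERD array was below every BLD array, and ERD and STD overlapped. ERD minus BLD was -0.11 ± 0.084 (unadjusted p = 0.199, adjusted p = 0.666), the lowest p of the member clusters in that comparison. ERD minus STD was -0.11, with a 95% interval of -0.296 to 0.071, and BLD minus STD was 0.002, with an interval of -0.194 to 0.198. The ERD minus BLD difference turned to 0.038 with normexp. With only probes well above background on all arrays it was 0.058 in the largest remaining cluster, of 4 probes. Over all 7 such Gad2 probes the means were -0.258 in ERD, -0.134 in BLD and -0.041 in STD.

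The probes of Gad2 were not alike along the cluster. The highest mean was 0.264 at 22477851 to 22477896, where BLD replicate 2 read 1.55 and the next highest array, ERD replicate 3, read 0.882. That spot was well above background on 3 of 4 ERD, 1 of 3 BLD and 3 of 3 STD arrays. The lowest mean was -0.674 at 22478980 to 22479024, which read -1.24, -0.580, -1.94 and -1.01 in ERD, -0.344, -0.824 and -0.300 in BLD, and -0.562, -0.168 and 0.234 in STD. All ERD arrays of this probe were below all STD arrays, by -1.03 ± 0.31 in the fit (adjusted p = 0.179). Joined at 300 bp, the last 6 probes of Gad2 (22478857 to 22479461, picked out after seeing their values) averaged -0.305 in ERD, -0.078 in BLD and -0.072 in STD. The ERD arrays differed from the STD arrays by -0.23 ± 0.10 (unadjusted p = 0.0381, adjusted p = 0.286). These probes include the one at 22478980, and the ERD minus STD differences of the others ran only from -0.233 to 0.235.

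**Figure D3:**
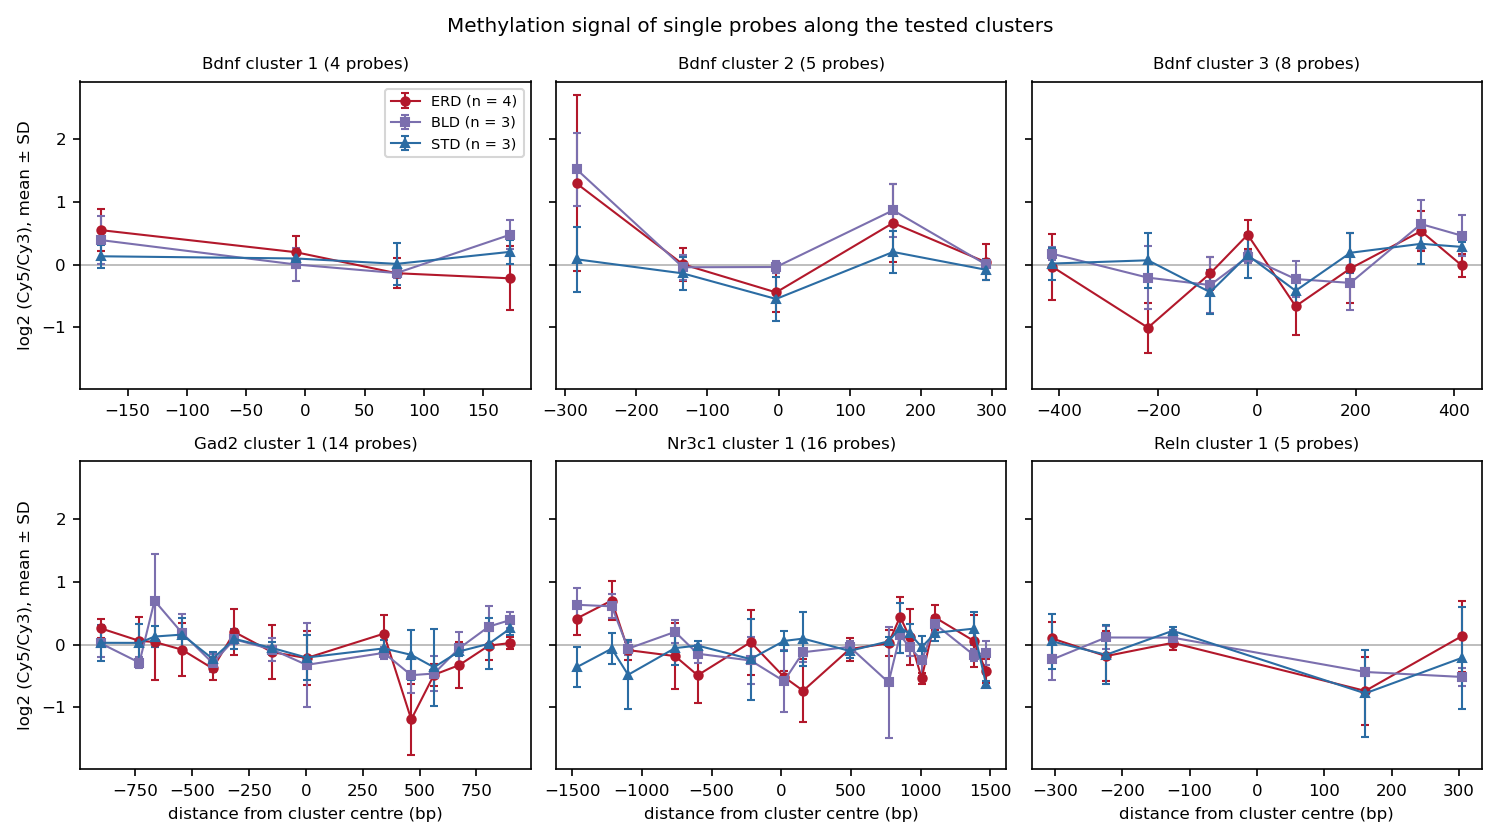
Mean log2 Cy5/Cy3 ratio of each member probe (y) by distance in bp from the centre of its cluster (x), with SD bars, for ERD, BLD and STD in the 6 tested clusters. Probes of 1 cluster differ among themselves, as in Gad2, where probe means over all arrays run from -0.674 to 0.264.

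The SD between probe means was 0.55 in Bdnf cluster 2, 0.35 in Bdnf cluster 3, 0.27 in Gad2, 0.26 in Nr3c1 and 0.30 in Reln cluster 1, and 0.19 in Bdnf cluster 1. Except in Bdnf cluster 2, it was larger than every difference between diets of that cluster. The SD between arrays within a diet was 0.062 in Gad2 and 0.069 in Nr3c1, and 1.53% and 2.77% of all tested clusters had a lower one. It was 0.29 in Bdnf cluster 2, where 90.1% of clusters had a lower one, and 0.167 (55.7%) without the probe at background. Clusters with more probes average over more spots, and the Gad2 and Nr3c1 clusters have the most. The median of this SD was 0.139 over the 6 clusters and 0.157 over all 13835 tested clusters.

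Across the whole set, levels were close to the array median. The mean level ranked at the 87.2nd percentile of tested clusters for Bdnf cluster 2 (the 66.8th without the probe at background), the 78.7th for Bdnf cluster 1, the 54.3rd for Bdnf cluster 3, the 50.4th for Nr3c1 and the 43.1st for Gad2. Averaged over diets, the order from high to low was Bdnf cluster 4, Bdnf cluster 2, Bdnf cluster 1, Bdnf cluster 3, Nr3c1, Gad2, Reln cluster 2 and Reln cluster 1. Each neighbouring pair in this order differed by less than the larger of its SDs between arrays within a diet. Without the probe at background, Bdnf cluster 2 averaged 0.042 over diets and stood below Bdnf cluster 1, at 0.132. In Bdnf cluster 4 a smaller share of spots was well above background than in any tested cluster, in each diet. Of the 56 probes, 3 lay above the median on all 10 arrays (5.36%, against 7.19% of all probes) and 1 lay below it on all of them (1.79%, against 10.2%). The 9 member probes of 50 to 60 nucleotides had a median of 0.30, against 0.23 for all 12333 such probes. The 47 member probes of 45 to 49 nucleotides had a median of -0.071, against -0.045 for all 76078.

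The comparisons were then counted over clusters and probes. For ERD minus STD, 0 of the 6 clusters had an unadjusted p under 0.05, where 15.7% of all tested clusters did. For BLD minus STD it was 1 of 6, against 11.2%. It was 0 of 6 for ERD minus BLD, against 10.2%, and 0 of 6 for the trend, in which the log2 ratio was fitted on the log2 of n-3:n-6, against 15.0%. Among all clusters, 0% passed the adjusted threshold in each pairwise comparison and 0.0434% in the trend, none of them members. The adjusted p of the 6 clusters ran from 0.340 to 0.959 for ERD minus STD, from 0.440 to 0.997 for BLD minus STD, from 0.666 to 0.975 for ERD minus BLD and from 0.441 to 0.964 for the trend. The trend with the lowest p was that of Bdnf cluster 2, at 0.068 ± 0.041 per doubling of the ratio (unadjusted p = 0.118). 

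**Figure D4:**
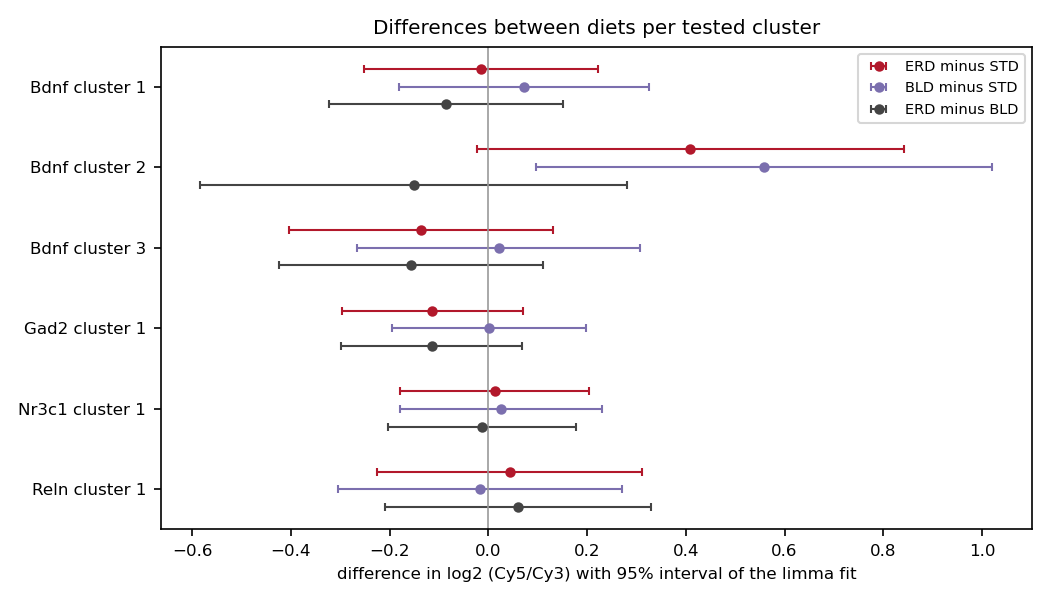
Difference in log2 Cy5/Cy3 ratio between diets for the 6 tested clusters, with 95% intervals of the limma fit. The only interval that leaves out 0 is BLD minus STD of Bdnf cluster 2 (0.097 to 1.021).

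At the level of single probes, 8 of 56 had an unadjusted p under 0.05 for ERD minus STD (3 higher and 5 lower), against 15.0% of all probes. For BLD minus STD there were 6 (4 higher and 2 lower), against 10.5%, for ERD minus BLD 7 (2 higher and 5 lower), against 11.7%, and for the trend 8 (3 positive and 5 negative), against 14.6%. These member shares lay near the background in each case. By gene, the ERD minus STD probes were 5 of Nr3c1 and 1 each of Bdnf, Gad2 and Reln, and the BLD minus STD probes were 4 of Nr3c1 and 1 each of Bdnf and Reln. The ERD minus BLD probes were 3 of Bdnf, 2 of Gad2 and 2 of Reln. These counts include the Reln probe at 21851199 (ERD minus STD and ERD minus BLD) and the Bdnf probe at 109517205 (BLD minus STD). Neither was well above background in both channels on any array. No probe of the array passed the adjusted threshold in any of these fits (0% each), and the lowest adjusted p of a member was 0.166, 0.464 and 0.386 in the pairwise comparisons and 0.144 in the trend.

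The arrays of a pair of diets were also counted as overlapping or not. The ERD and STD arrays did not overlap in 0 of 6 clusters (16.2% of all) and in 8 of 55 probes with all arrays measured (16.4% of all). The BLD and STD arrays did not overlap in 1 of 6 clusters, Bdnf cluster 2 (17.4% of all), and in 7 of 56 probes (16.6%). The ERD and BLD arrays did not overlap in 1 of 6 clusters, Gad2 (10.1%), and in 1 of 55 probes (1.82%, against 11.5% of all).

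The clusters outside the windows whose values over the 10 arrays most resembled each gene's mean were found among 13829 clusters. They are given as a description, with no test. For Bdnf they were 3 probes on chromosome 17 (23943899 to 23944249, Pearson r = 0.978) and 5 probes on chromosome 2 (56968798 to 56969376, r = 0.968). For Gad2 they were 11 probes on chromosome 7 (120350411 to 120352095, r = 0.949) and 6 on chromosome 15 (5193865 to 5194561, r = 0.933). For Nr3c1 they were 7 probes on chromosome 9 (71333189 to 71333954, r = 0.931) and 27 on chromosome 8 (90482274 to 90486818, r = 0.922). For Reln both lay on chromosome 2, with 6 probes (90725694 to 90726313, r = 0.943) and 8 probes (71378997 to 71379702, r = 0.932).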

How the data were processed

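DNA methylation was measured on 10 Agilent 2-colour arrays (4 ERD, 3 BLD, 3 STD). Per the file headers, the scanner software was Agilent Feature Extraction 10.7.3.1. Version 9.0 stands in the submitters' processing notes. The deposited processed intensity of each channel is background-subtracted and dye-normalized by the scanner software, per the file headers, and the deposited log10 ratio of the same spots is Cy5 over Cy3. Other deposited columns (flags, positions) are codes. The series value table holds the deposited log10 ratios, rounded. Positions are on mm9, per the file headers.

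The log2 ratio of processed Cy5 over Cy3 intensity, computed from the deposited values, was centred on each array's median without loess or quantile steps. Outlier spots were left out and saturated spots kept. Clusters of at least 3 probes (13835, with 85655 probes) and all single probes were fitted with limma 3.58.1 in R 4.3.3 over all 10 arrays with no covariate, two-sided, with Benjamini-Hochberg adjustment over the whole table at 0.05. Scripts were tested on simulated data. There was no dye swap, and Cy5 carried the immunoprecipitated DNA on every array, so a dye effect cancels between diets only where it was equal. The labels do not say that samples are separate animals, and p-values therefore cover the spread among these samples, which may be technical. The number of arrays limits the precision.

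Named were all clusters, per comparison the clusters under an unadjusted p of 0.05 or else the lowest, per gene the highest and lowest probe, per comparison the member probe with the lowest p, and per gene the 2 most similar clusters. The members and lists were chosen with earlier results of these data known. The listed pathway genes and cell markers were not tested, since no file pairs probes with genes. The first alternative was normexp background correction (offset 50), which used the raw median intensities and so also left out the dye normalization. Others were loess, quantile normalization, filters on dim probes, scaling of the arrays to equal spread, the series' deposited value table and kept outlier spots. The rest were slide as a random block, median of probes, gaps of 300 and 1000 bp, clusters of any size, array weights, only the diets compared, and each array left out.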

Additional observations from a re-analysis of the deposited data

Results flagged for a closer look

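In Bdnf cluster 4, ERD replicate 2 stood at 2.064, while the other ERD arrays lay between 0.248 and 0.429. The gap to the nearest array was 0.900 of the range, above Dixon's 95% critical value for 4 samples. Of the 8 ERD cluster groups examined, 1 stood out, and chance gives about 1 of every 20. This cluster has 2 probes, and 50% of its ERD spots were well above background.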

How the results depend on the processing

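No paired analysis was possible because the replicate numbers were given in accession order and pair no samples. No member cluster passed the adjusted threshold under any of the settings run. With normexp background correction, Bdnf cluster 2 turned to -0.083 for ERD minus STD, -0.068 for BLD minus STD and -0.015 for the trend, and Gad2 ERD minus BLD to 0.038. It also turned the first Nr3c1 part to -0.026 (ERD minus STD) and -0.082 (BLD minus STD), the second to 0.009 (BLD minus STD), the Nr3c1 probe at 39648559 to -0.303 and the trend of the Reln probe at 21851199 to -0.069. With only probes well above background on all arrays, Gad2 ERD minus BLD was 0.058 in the largest remaining cluster, of 4 probes. The normexp setting changed both the background correction and the dye normalization, and the cause of these turns was not tested.

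Counts of member clusters under an unadjusted p of 0.05 (main: 0 for ERD minus STD, 1 for BLD minus STD, 0 for ERD minus BLD, 0 for the trend) moved as follows. BLD minus STD had 0 with normexp (3.59% of all clusters), with the median of probes (9.92%) and with bright probes only (11.2%). ERD minus STD had 1 with the series value table (15.9% of all clusters) and 1 of 7 with bright probes only (17.9%), which also gave 2 for ERD minus BLD (11.1%) and 1 for the trend (17.0%). Gaps of 300 bp gave 3, 3, 1 and 3 of 9 clusters in these 4 fits, against 15.9%, 11.0%, 10.2% and 15.3% of all, and clusters of any size gave 1 of 8 for ERD minus BLD (10.3%). Counts of member probes (main 8, 6, 7 and 8) were 4, 1, 0 and 3 with normexp (11.2%, 5.03%, 0.147% and 10.5% of all probes) and 5, 3, 4 and 5 of 29 with bright probes only (16.4%, 9.15%, 13.5% and 16.3%). For ERD minus BLD they were 4 with quantile normalization (9.21% of all), 4 with scaling to one spread (8.14%) and 4 with slide as a random block (9.72%).

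Leaving out 1 array in turn, clusters under 0.05 ranged from 0 to 1 for ERD minus STD and for the trend (1 without ERD replicate 4, against 14.6% and 13.9% of all) and from 0 to 1 for BLD minus STD (0 without BLD replicate 1, BLD replicate 2 or STD replicate 1, where 4.44%, 5.43% and 7.53% of all clusters did). Member probes under 0.05 ranged from 2 to 9 for BLD minus STD, with 2 without BLD replicate 1 (4.14% of all probes). They were 3 without BLD replicate 2 (5.70%) or STD replicate 2 (8.71%), and 9 without BLD replicate 3 (17.6%) or ERD replicate 2 (11.7%). For ERD minus BLD they ranged from 1 to 9, with 1 without BLD replicate 1 (7.02% of all) and 9 without STD replicate 1 (12.3%). They were 2 without ERD replicate 1 (8.87%) or BLD replicate 2 (8.95%), 3 without STD replicate 2 (10.6%) and 4 without ERD replicate 3 (8.46%). The settings added after the data were seen were the filter on probes at background on all arrays, further settings for the gene means, all settings for the single probes and their counts, and the Nr3c1 parts. Signal over background limits the probes at 109517205 (Bdnf) and 21851199 (Reln) most.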
